A study of Mus musculus with 9 samples.

Results

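The infarcted left ventricle of the mouse was compared with the sham-operated left ventricle across all genes that passed a filter on low counts. These were 15138 of the 55367 genes in the deposited table, and they held 99.85% of the counts of the 6 libraries compared, which are 6 of the 9 in the series. RNA was sequenced from 3 Sham libraries, from mice given sham surgery, and from 3 MI libraries, from mice with myocardial infarction at day 14. The labels describe the tissue as the core of the infarct together with the zone that borders it, which a sham heart does not have, and do not say which part of the sham ventricle was taken. The remaining 3 libraries, MI+BPD, are infarcted ventricles with a treatment that the labels abbreviate as BPD. They entered the count filter, the scaling and the estimate of the spread between libraries, and are not compared here. The sources used here do not give strain, sex, age or the time of the sham hearts. The labels number the libraries as hearts without saying whether tissue was pooled, so the p-values measure the spread between these samples.

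When a coronary artery is closed, the heart muscle it feeds dies and is replaced by a scar. Macrophages clear the dead muscle, fibroblasts divide and lay down collagen-rich matrix, and the matrix is then cross-linked and matures. Surviving muscle cells, above all those next to the scar, switch on genes of the fetal heart and switch off part of the adult programme of contraction, calcium cycling and fat oxidation. RNA of whole tissue reads all these cells at once, so fewer cells of a type and less RNA per cell cannot be told apart in any value below.

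The libraries held 14451410 to 17703461 counts in sham and 19101748 to 19269072 in MI. Counts were scaled by trimmed mean of M values (TMM), whose factors lay between 0.741 and 0.757 in sham and between 1.14 and 1.32 in MI, and CPM below is the unit of counts after that scaling. All 6 libraries carried the markers of ventricular muscle, with Myl2, the ventricular myosin light chain, at 94148, 105713 and 123171 counts in Sham 1 to 3 and 44454, 46975 and 76031 in MI 1 to 3. Of the markers of the atrium, Myl7 lay at 1 to 24 counts and the calcium pump regulator Sln and the growth factor Bmp10 at 0 or 1 count per library. Myl4, the atrial myosin light chain, went from 7, 10 and 15 counts to 72, 82 and 64, and of the 12 atrial markers tested, which include Nppa, 6 were called higher and 5 lower. Lung surfactant genes stayed near 0. Among the MI libraries, MI 3 held more muscle transcripts than MI 1 and MI 2 and fewer scar transcripts. MI 1 held most transcripts of fat tissue and of B cells, and MI 2 most counts of several liver markers. Their values stand beside the results they touch.

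Most genes differed between the groups. A gene is called below when its adjusted p in edgeR's quasi-likelihood test is under 0.05, and 10429 genes were called, or 68.9% of those tested. Of these 5594 were higher in MI (37.0%) and 4835 lower (31.9%). Counts of called genes in the lists below are to be read beside these shares. In 74.4% of the genes tested the 3 MI libraries did not overlap with the 3 sham libraries in CPM. A total of 5271 called genes had a fold change under 2. A test against a change of 2-fold left 3046 genes (20.1%), 1996 higher (13.2%) and 1050 lower (6.94%). The change was thus lopsided in size, since past 2-fold 65.5% of the genes were higher, against 53.6% of all called genes. The split depends on the scaling. When only library totals were used for scaling, the median log2 change of all genes moved from 0.07 to 0.81, 85.6% of the called genes were higher, and past 2-fold 4390 genes were higher and 252 lower. Of the 5594 genes called higher, 5593 were also called higher with library totals. Of the 4835 called lower, 1765 were also called lower and 1091 were called higher. All 1996 genes past 2-fold higher stayed so, and 252 of the 1050 past 2-fold lower did. The number past 2-fold lower also turned on single libraries: it was 1585 without MI 3, 648 without MI 1 and 597 without MI 2.

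**Figure D1:**
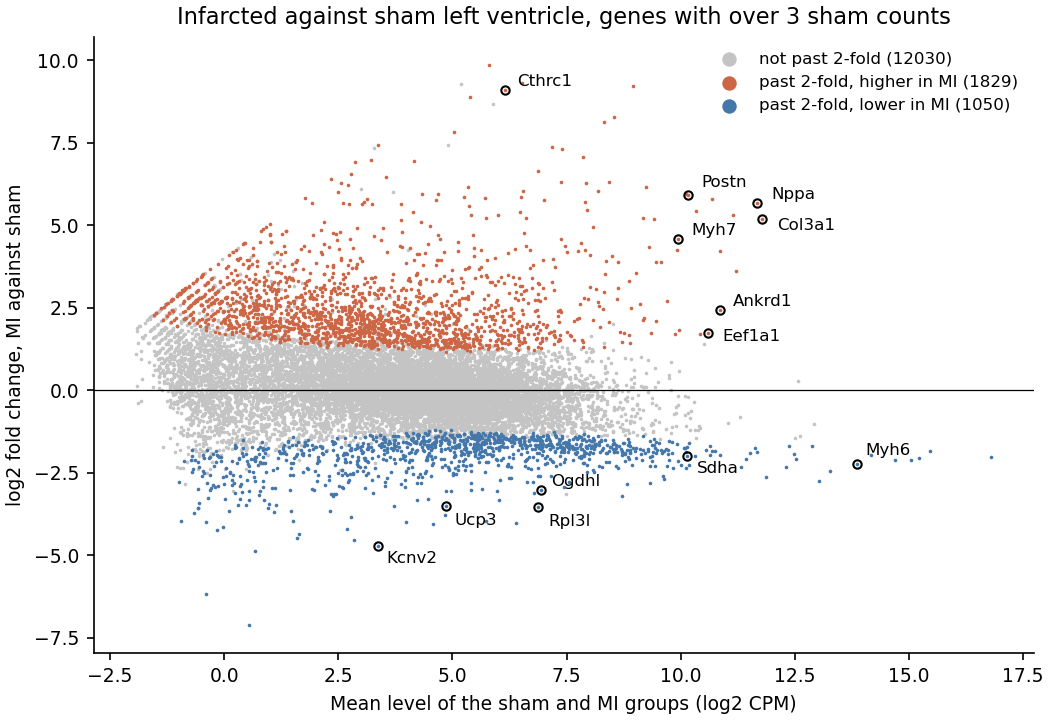
Each point is 1 of the 14909 tested genes with over 3 sham counts, by mean level in log2 CPM (horizontal axis) and log2 fold change of MI against sham (vertical axis), with genes past 2-fold coloured (1829 higher, 1050 lower). Higher genes spread over the whole range of levels and reach further from 0 than lower ones, and the right edge, where the most abundant genes lie, is mostly below 0.

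Higher and lower genes sat at different levels of expression. The level is the mean of both groups' CPM. Among the 3785 tested genes of lowest level, up to 3.8 CPM, 1637 were called higher and 544 lower, and the median log2 change was 0.67. Among the 3785 of highest level, from 42.7 CPM, 1054 were called higher and 1949 lower, with a median of -0.24. A gene of low level could pass the filter through the group in which it was high alone, so the counts among the lowest genes carry that choice. Genes called with a change past 2-fold to the lower side held 57.6% ± 0.339 of all counts in sham and 23.8% ± 6.24 in MI (SD, n = 3 each). Genes past 2-fold to the higher side held 1.68% ± 0.0551 in sham and 18.7% ± 4.0 in MI. No library of MI overlapped with one of sham in either share. Both shares are sums over genes chosen by this comparison and describe where the counts went.

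The ranking of nuclear genes by counts, which favours long transcripts, shows the exchange in named genes. In sham the 10 most counted were Myh6, Atp2a2, Mb, Actc1, Pln, Myl2, Ttn, Tpm1, Lpl and Tnnt2, that is contractile proteins, the calcium pump SERCA2 and its inhibitor phospholamban, myoglobin and lipoprotein lipase. In MI Col3a1 came first, from rank 731 in sham, and Nppa had rank 3, from rank 1180. Col1a2 moved up from rank 1337, Bgn from rank 743 and Sparc from rank 330. Myh6, Actc1, Mb and Ttn stayed among the first 10 of both groups, and 43 of the first 100 were shared. A gene with a clone name, CT010467.1, was second in MI and was not called (4867, 4909 and 6670.2 CPM in sham, 4476, 8758 and 6802 in MI, adjusted p = 0.391).

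Shares of a library's counts separated the groups in the same way. They amount to scaling by library totals, under which the median log2 change of all genes was 0.81. A rise in share is to be read beside that median. The 44 collagen chain genes took 0.141, 0.11 and 0.12% of the counts in Sham 1 to 3 and 3.25, 3.41 and 2.01% in MI 1 to 3. The contractile proteins of heart muscle took 6.58, 6.57 and 6.8% and 3.3, 3.38 and 4.78%. The 37 genes of mitochondrial DNA took 34.7, 35.2 and 34.4% and 11.4, 11.8 and 18.2%. In each of these MI 3 was the MI library closest to sham. Smaller classes moved too: proteoglycans went from 0.0987% ± 0.00451 to 1.17% ± 0.254 of the counts, the non-muscle cytoskeleton from 0.272% ± 0.00925 to 1.02% ± 0.194, lysosomal genes from 0.365% ± 0.00668 to 0.756% ± 0.123 and ribosomal proteins from 1.18% ± 0.0415 to 1.96% ± 0.166 (SD, n = 3 each). In the 2-sided exact permutation test each of these shares had p = 0.1, the smallest that 3 libraries against 3 allow. The rise in share of the ribosomal proteins was not seen in the main scaling, where their 82 genes had a median log2 change of 0.01, with 16 called higher and 9 lower. Markers of red blood cells overlapped between the groups (0.0112, 0.0078 and 0.0109% and 0.0149, 0.0146 and 0.00997%, exact permutation p = 0.3).

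**Figure D2:**
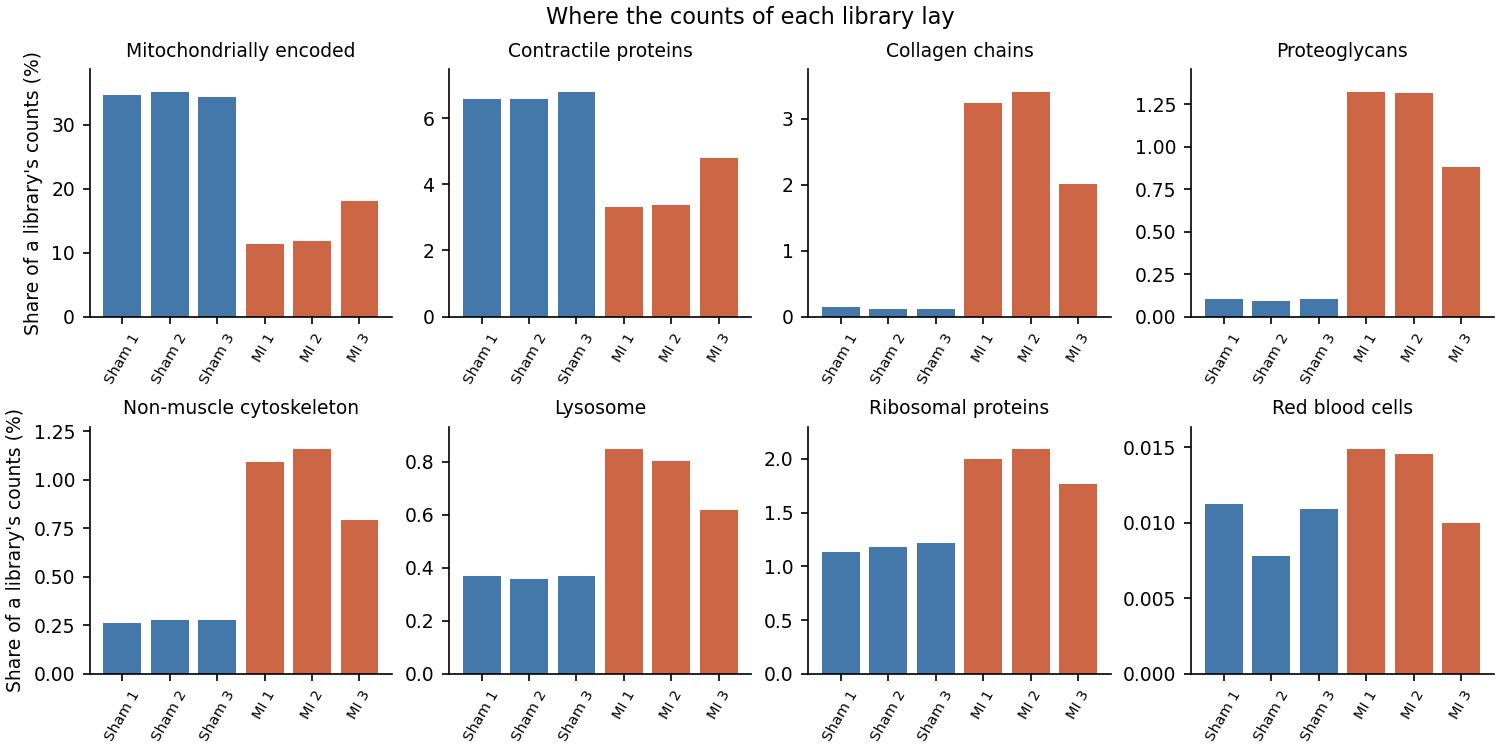
Bars give the share of each library's counts, in percent, held by 8 classes of genes, with the 3 sham libraries in blue and the 3 MI libraries in orange; each panel has its own axis from 0. Sham libraries are nearly level, MI 1 and MI 2 are alike, and MI 3 lies between them and sham in every panel but that of red blood cells.

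Most contractile genes fell, and a few, among them genes of the fetal and stressed heart, rose. Of the 21 tested contractile genes 5 were called higher and 14 lower (over all genes tested, 37.0% and 31.9%), with a median log2 change of -1.07 against 0.07 over all genes. Myh6, the myosin heavy chain of the adult mouse ventricle, stood at 24723, 23992 and 25257 CPM in Sham 1 to 3 and 4365, 4214 and 7197 in MI 1 to 3 (log2 change -2.23 ± 0.34, SE; adjusted p = 0.00036). Myh7, the myosin heavy chain of the fetal ventricle, stood at 88.6, 107 and 42.8 and 1589.8, 1332 and 2782 CPM (4.58 ± 0.57, adjusted p = 0.00014). No MI library overlapped with sham for either gene, and MI 3 had the most of both among the infarcted libraries. The troponin I gene Tnni3, the inhibitory subunit of the thin filament, fell from 3996, 4353 and 4521 to 584, 685 and 1271 CPM (-2.34 ± 0.35), and Myl3, an essential light chain, fell too (log2 change -1.87 ± 0.32). Acta1, the skeletal alpha-actin that the stressed ventricle also uses, rose from 202, 75.8 and 125 to 445, 496 and 732 CPM (2.06 ± 0.43, adjusted p = 0.00219). Reads of the near-identical actins and of the neighbouring myosin genes can be shared between copies, which makes their single values less certain. Myom3, an M-band protein, was not called (adjusted p = 0.054, 0.0422 without MI 3).

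In the main scaling, most genes of the list of the Z-disc, of the costamere, which ties it to the cell surface, and of muscle stress fell. Of 28 such genes 5 were called higher and 18 lower, with a median of -0.98; with library totals only 8 were higher and 12 lower (median -0.26). The list's summed share of all counts went from 1.34%, 1.302% and 1.281% in Sham 1 to 3 to 1.444%, 1.64% and 1.858% in MI 1 to 3, where the groups did not overlap (exact permutation p = 0.1, the smallest that 3 against 3 can give). Ankrd1, a titin-binding stress protein, rose from 736, 496 and 538 to 2698, 3318 and 3469 CPM (2.42 ± 0.39, adjusted p = 0.00051), and Xirp2, an actin-binding repeat protein, from 825, 832 and 748 to 1612, 2092 and 2587 CPM (1.39 ± 0.34). All MI libraries lay above all sham libraries for both. Sprr1a, a stress protein, had 0, 0 and 0 counts in sham and 916, 868 and 601 in MI, at least 394-fold higher against a floor of 3 counts over the sham group. Fhl1 rose (1.05 ± 0.16) and its relative Fhl2 fell (-1.71 ± 0.25). Tcap, the titin cap, and Cmya5, a costamere protein, fell (log2 changes -1.64 ± 0.25 and -1.94 ± 0.28). Desmin (Des), the intermediate filament of muscle, stood at 1379.6, 1427 and 1405 CPM in sham and 964, 1084 and 1259.7 in MI and was not called (adjusted p = 0.106, 0.0377 without MI 3). The small heat shock protein Hspb1 was not called either (adjusted p = 0.332).

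The 200 bases before the annotated start are shown for 5 muscle genes: the neighbours Myh6 and Myh7, which moved in opposite directions, and Nppa, Acta1 and Ankrd1, which rose. They come from RefSeq's table for build GRCm38.p6 and are written 5′ to 3′ on the gene's strand; the build behind the counts is not settled by the sources. Capitals mark the TATA motif TATAAA and the MCAT motif CATTCC, a binding sequence of TEAD factors, on either strand; the motifs do not overlap.
Myh6, chr14:54966608-54966807, minus strand: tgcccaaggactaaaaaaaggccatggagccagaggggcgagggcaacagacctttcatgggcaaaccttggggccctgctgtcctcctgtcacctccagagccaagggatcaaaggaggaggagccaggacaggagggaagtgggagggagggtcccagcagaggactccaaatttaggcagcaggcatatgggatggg
Myh7, chr14:54994627-54994826, minus strand: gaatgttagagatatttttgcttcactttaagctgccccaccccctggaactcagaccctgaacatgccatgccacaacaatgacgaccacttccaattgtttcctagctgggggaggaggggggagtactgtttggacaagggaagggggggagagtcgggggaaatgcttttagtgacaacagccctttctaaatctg
Nppa, chr4:148000522-148000721, plus strand: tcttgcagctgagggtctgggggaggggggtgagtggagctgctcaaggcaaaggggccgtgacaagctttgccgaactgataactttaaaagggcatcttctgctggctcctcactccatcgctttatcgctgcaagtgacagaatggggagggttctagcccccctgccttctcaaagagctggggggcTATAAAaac
Acta1, chr8:123894776-123894975, minus strand: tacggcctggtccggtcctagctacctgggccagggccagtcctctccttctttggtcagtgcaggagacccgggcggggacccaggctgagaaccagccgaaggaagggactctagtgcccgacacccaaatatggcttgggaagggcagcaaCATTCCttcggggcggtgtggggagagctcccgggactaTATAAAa
Ankrd1, chr19:36119845-36120044, minus strand: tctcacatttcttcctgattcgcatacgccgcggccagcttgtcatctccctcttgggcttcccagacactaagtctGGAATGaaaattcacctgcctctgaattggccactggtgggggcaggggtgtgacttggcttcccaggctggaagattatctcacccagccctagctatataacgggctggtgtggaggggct
The TATA motif begins 9 bases before the start in Nppa and 7 in Acta1. The MCAT motif begins 46 bases before the start in Acta1 and, on the other strand, 123 in Ankrd1. Neither of these exact spellings occurs in the windows of Myh6 and Myh7, and other spellings of the motifs were not searched. TATAAA is held by 10.6% of the 27025 promoter windows listed and CATTCC by 10.1%, so a match is a description of these windows only.

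Pairs of paralogs, in which one form is typical of heart or muscle and the other of other cells or of the fetal heart, were compared by the ratio of their counts within each library. This ratio does not depend on scaling, and it was taken per kilobase of annotated exon with 0.5 counts added to each gene. In 27 of 27 pairs the ratio was lower in every MI library than in every sham library, each with a 2-sided exact permutation p of 0.1, the smallest possible here. The heart or muscle form was called lower in 26 of 27 pairs, all but Des, and the other form was called higher in 17 and lower in 5. The pairs were chosen with results of these data known, and a change of the form within a cell and a change of the mix of cells cannot be told apart by these ratios.

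Among contractile and cytoskeletal pairs the ratio of Myh6 to Myh7 moved most. Its log2 value was 8.48, 8.17 and 9.56 in sham and 1.81, 2.02 and 1.73 in MI, which took the linear ratio from 427 to 3.62, 118-fold lower. Adult myosin transcripts still outnumbered Myh7 in all 3 MI libraries. The log2 ratio of Actc1 to Acta1 went from 5.53, 6.96 and 6.41 to 3.12, 3.20 and 3.06, and the 3 MI values lay closer together than the sham values. Muscle alpha-actinin (Actn2) over the non-muscle form (Actn1) went from 6.38, 5.96 and 6.30 to 2.08, 1.99 and 3.14. Desmin over vimentin (Vim) went from 3.77, 3.58 and 3.48 to 0.42, 0.72 and 1.11, with Vim itself rising by a log2 change of 2.50 ± 0.16. The integrin Itga7, the laminin receptor of muscle, was 1.83 times as abundant per kilobase as the fibronectin receptor Itga5 in sham and 0.605 times in MI, so their order reversed. The ratio of Tnni3 to the fetal form Tnni1 fell as well (14.90, 14.24 and 15.34 to 11.13, 10.35 and 10.88), but Tnni1 had few counts (2, 4 and 2 in sham, 11, 22 and 25 in MI) and its call as higher (adjusted p = 0.0471) ended without MI 2 (0.093), without MI 3 (0.112) and without Sham 1, 2 or 3 (0.118, 0.0591 and 0.138).

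The same exchange reached the machinery of translation. Rpl3l is a form of ribosomal protein L3 made in striated muscle, and Rpl3 the form of other cells. Rpl3l stood at 209, 211 and 229.9 CPM in sham and 12.7, 11.5 and 31.3 in MI (-3.55 ± 0.45, adjusted p = 0.00015), and Rpl3 at 125, 140.0 and 135 and 320.4, 328 and 297 CPM (1.24 ± 0.12). Per kilobase Rpl3l was 3.14 times Rpl3 in sham and 0.102 times in MI. Elongation factor 1A showed the same reversal: Eef1a2, the form of muscle and neurons, went from 1.67 to 0.153 times Eef1a1, whose counts are less certain because it has many pseudogenes. MI 3 had the highest ratio of the 3 MI libraries in both pairs. The 82 cytosolic ribosomal protein genes as a class did not follow, with 16 called higher, 9 lower and a median log2 change of 0.01.

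In energy metabolism the ratio fell in every pair, although in several of them the other form was not called or was called lower too. The lactate transporter Slc16a1, which serves uptake, over Slc16a3, which serves export, went from a log2 ratio of 8.13, 8.60 and 8.16 to 3.32, 3.24 and 4.40. Slc16a3 itself rose from 1.28, 1.14 and 1.6 to 11.2, 13.2 and 10.1 CPM (3.09 ± 0.17). The glucose transporter Slc2a4, which insulin brings to the surface, over the basal transporter Slc2a1 went from 5.04, 5.37 and 5.10 to 1.98, 1.74 and 3.03. Muscle creatine kinase Ckm over the brain form Ckb went from 6.09, 6.01 and 6.03 to 1.91, 1.68 and 2.97, and the mitochondrial over the cytosolic branched-chain aminotransferase (Bcat2 over Bcat1) from 7.45, 8.46 and 8.06 to 3.06, 3.14 and 4.07. The enolase, phosphoglycerate mutase and phosphofructokinase pairs (Eno3, Pgam2 and Pfkm over Eno1, Pgam1 and Pfkp) fell 6.77-fold, 4.44-fold and 7.0-fold. A smaller shift was that of the cytochrome oxidase subunits Cox7a1 over Cox7a2 (1.95-fold), where both forms were called lower.

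**Figure D3:**
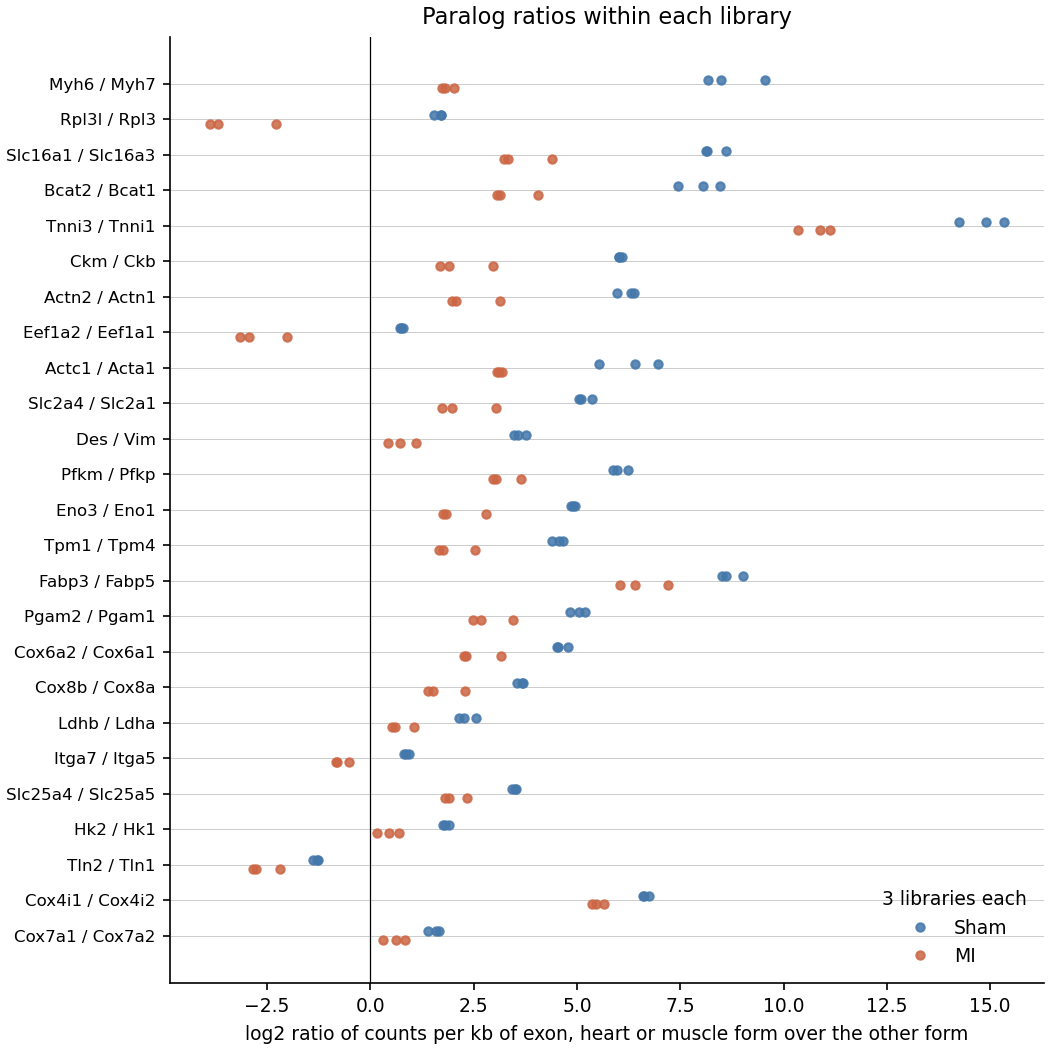
Each row is a pair of paralogs and each point 1 library (3 sham in blue, 3 MI in orange), with the log2 ratio of counts per kilobase of exon, heart or muscle form over the other form, on the horizontal axis, where 0 means equal amounts; the pair of Cpt1b and Cpt1a is left out because Cpt1b overlaps a neighbouring gene, and 1 further pair is not shown. The orange points lie left of the blue ones in every row, and the pairs Rpl3l, Eef1a2 and Itga7 cross 0.

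In the main scaling, more genes of calcium handling, excitation and cell contact fell than rose. Of 26 calcium cycling genes 2 were called higher and 19 lower (median -1.18). Of 42 ion channel and pacemaker genes 7 were called higher and 28 lower (median -1.45). Of 20 genes of the intercalated disc, the junction between muscle cells, 2 were called higher and 15 lower (median -0.86). With library totals only, 6 calcium genes were higher and 15 lower, 13 and 23 channel genes, and 5 and 8 disc genes, with medians of -0.46, -0.73 and -0.13. The summed share of the disc genes overlapped between the groups, at 0.416%, 0.42% and 0.410% in sham and 0.357%, 0.379% and 0.419% in MI (exact permutation p = 0.3). Atp2a2, the SERCA2 pump, fell from 16706, 16512 and 17010 to 2235, 2518 and 4537 CPM (-2.43 ± 0.37, adjusted p = 0.00034). Its inhibitor phospholamban (Pln) and Hrc, a calcium-binding protein of the sarcoplasmic reticulum, fell with it (log2 changes -2.07 ± 0.34 and -2.60 ± 0.41). Atp2b4, a calcium pump of the plasma membrane (0.67 ± 0.10), and Itpr2, an intracellular release channel (0.57 ± 0.11), rose.

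Among ion channels, Kcnj3 and Kcnj5, which form the channel that acetylcholine opens, fell (log2 changes -3.34 ± 0.49 and -2.06 ± 0.31), as did Scn4a, a sodium channel of muscle (-3.32 ± 0.56). Kcnma1, the large-conductance potassium channel known from smooth muscle, rose from 0.183, 1.4 and 0.534 to 11, 13.4 and 8.79 CPM (3.96 ± 0.43), and the auxiliary subunit Kcne4 from 3.39, 4.2 and 3.51 to 38, 39.9 and 27 (3.24 ± 0.23). In these 2 genes every MI library exceeded every sham library. Fxyd5, a sodium pump regulator, also rose (2.19 ± 0.12). At the intercalated disc the desmosomal cadherins Dsg2 and Dsc2 fell (-2.05 ± 0.27 and -1.74 ± 0.28), the connexin Gja5 rose (7.23, 10.8 and 7.78 to 19.1, 20.1 and 16.2 CPM), and beta-catenin (Ctnnb1) and vinculin (Vcl) were not called (0.15 and -0.01).

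In the main scaling, transcription factors of the cardiac lineage and of its metabolism fell almost as a block. Of 34 tested 1 was called higher and 29 lower (median -0.86). The single gene that rose was Tbx20, a T-box factor (173, 173 and 169 CPM in sham, 347, 324 and 333 in MI, 0.96 ± 0.20). Ppargc1a, the coactivator of mitochondrial genes, fell from 165, 176 and 156 to 30.3, 32.3 and 58.4 CPM (-2.04 ± 0.30). Klf15, a regulator of fat and amino acid use, the retinoid receptor Rxrg and the muscle regulator Perm1 fell as well (log2 changes -2.04 ± 0.24, -2.29 ± 0.33 and -1.91 ± 0.28). These 4 stayed lower with library totals as the only scaling (-1.33, -1.31, -1.58 and -1.21). For the whole list that scaling gave 8 higher and 15 lower with a median of -0.13, beside the shifted median of 0.81 over all genes. The list's summed share of all counts overlapped between the groups (exact permutation p = 0.2). It was 0.209%, 0.213% and 0.206% in sham and 0.208%, 0.191% and 0.205% in MI.

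Catabolism of branched-chain amino acids and ketone bodies had the lowest median of the pathway lists. Of 27 tested genes 1 was called higher and 25 lower (median -1.71), and 20 were past 2-fold lower (6.94% of all genes tested). Bckdhb, a subunit of the dehydrogenase that commits branched-chain keto acids to breakdown, fell from 58, 61 and 56.2 to 14.8, 13.8 and 18.5 CPM (-1.89 ± 0.15, adjusted p = 2.3e-05). Its phosphatase Ppm1k, Ivd, the next dehydrogenase for leucine, and the thiolase Acat1 fell too (log2 changes -2.12 ± 0.27, -2.29 ± 0.30 and -2.16 ± 0.30). Bcat1, the cytosolic aminotransferase, was the 1 member called higher (1.28, 0.70 and 0.915 CPM in sham, 8.39, 7.41 and 5.75 in MI, 2.90 ± 0.23). With library totals only, 23 members stayed lower.

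Genes of fuel transport changed in both directions. Of 27 transport genes 7 were called higher and 14 lower (over all genes tested, 37.0% and 31.9%), with a median of -1.25. With library totals only 13 were higher and 14 lower (median -0.53). Lpl, the lipase that frees fatty acids from lipoproteins, fell from 8292, 8569 and 8668 to 1292, 1271 and 2495 CPM (-2.34 ± 0.33), and so did the carnitine carrier Slc25a20 and the fatty acid binding protein Fabp3 (-2.16 ± 0.28 and -1.97 ± 0.32). The glutamine transporter Slc1a5 rose from 13.4, 18.1 and 18.8 to 133, 107 and 82 CPM (2.67 ± 0.25), and the large neutral amino acid transporter Slc7a5 and the glucose transporter Slc2a3 rose by 1.97 ± 0.16 and 1.35 ± 0.17. No library overlapped between the groups for Lpl or Slc1a5. Of 17 genes of creatine, adenylate and oxygen buffering 5 were called higher and 12 lower; myoglobin (Mb) fell from 11452, 11665 and 11251 to 2595, 2987 and 5066 CPM, and the globin Cygb of fibroblasts rose from 49, 44 and 44.6 to 216, 199 and 160.4 CPM (2.06 ± 0.20).

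Biosynthesis ran the other way for part of its genes. Of 33 genes of nucleotide, serine and one-carbon synthesis 18 were called higher and 9 lower (median 0.33). Mthfd2, a mitochondrial folate enzyme of dividing cells, rose from 1.92, 2.1 and 1.68 to 12.1, 12.5 and 13.2 CPM (2.73 ± 0.14, adjusted p = 5.2e-06), Phgdh, which starts serine synthesis, by 3.50 ± 0.46 and Pycr1, which makes proline, by 3.34 ± 0.24. Members called lower moved less, and the lowest was Shmt1, the cytosolic serine hydroxymethyltransferase (-1.13 ± 0.23). With library totals only, 0 were lower and 26 higher, beside 10488 of all 15138 genes called higher.

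The 12 genes of smallest p past 2-fold on the lower side, at 20 CPM or more in sham, were Bckdhb, Ces1d, Fbxo31, Gpcpd1, Gstk1, Mreg, Mtr, Ogdhl, Pdp2, Shld1, Ttll1 and Ucp3. Ogdhl, an isoform of the oxoglutarate dehydrogenase subunit, fell from 207, 225 and 222 to 21.4, 20.9 and 37.5 CPM (-3.04 ± 0.34), and Pdp2, a phosphatase that activates pyruvate dehydrogenase, from 62.1, 43.3 and 44.2 to 8.55, 8.63 and 12.8 (-2.32 ± 0.23). Mtr, the methionine synthase, fell from 250.5, 291 and 335 to 74.9, 75.1 and 88.9 CPM (-1.88 ± 0.14), and Shld1, known from DNA repair, from 21.9, 20.3 and 21.3 to 4.51, 4.44 and 6.08 (-2.08 ± 0.13). The MI values of these 4 lay well below all sham values, and MI 3 was the highest of the MI libraries in Ogdhl. On the higher side the 12 were C1qtnf6, Col12a1, Col14a1, Col3a1, Col5a1, Cthrc1, Ctsk, Dclk1, Dkk3, Lhfpl2, Postn and Vcan, of which 4 are collagen chains. Lhfpl2, a tetraspan membrane protein, rose from 4.76, 4.29 and 6.02 to 79.2, 94.2 and 80 CPM (4.06 ± 0.18, adjusted p = 3.9e-06). C1qtnf6, a secreted C1q-like protein, rose from 5.95, 6.04 and 8.69 to 64.3, 74.5 and 65.1 (3.29 ± 0.15), and Dclk1, a kinase of microtubules, from 4.03, 4.99 and 4.88 to 55.2, 55.1 and 44.4 (3.47 ± 0.15).

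The scar side was led by genes that build and finish the matrix. Of the 41 collagen chain genes tested 37 were called higher and 0 lower, with a median log2 change of 3.07. Of 38 genes that modify and export collagen 31 were called higher and 1 lower (median 1.68). Lox, the enzyme that starts cross-linking of collagen and elastin, rose from 7.32, 9.62 and 8.62 to 808, 822 and 415 CPM (6.32 ± 0.40, adjusted p = 8.5e-06), and its relatives Loxl1 and Loxl3 by 4.18 ± 0.29 and 5.41 ± 0.46. Adamts2, the protease that trims procollagen, rose by 4.25 ± 0.26, and P4ha3, a subunit of a prolyl hydroxylase, from 2, 1 and 1 counts in sham to 546, 668 and 280 in MI (7.43 ± 0.47). Another such subunit, P4ha2, was not called (40, 44.4 and 40.9 CPM in sham, 36.7, 37.7 and 38.3 in MI), nor was the coat protein Sec23a of secretory vesicles (0.01). Every MI library exceeded every sham library for the genes named as higher.

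Elastic fibres and proteoglycans had the largest medians of the pathway lists. Of 19 elastic fibre genes 17 were called higher and 0 lower (median 3.88). Elastin (Eln) rose from 34, 36.6 and 35.8 to 2171, 2528 and 1872 CPM (5.95 ± 0.44, adjusted p = 1.6e-05), the microfibril protein Mfap4 from 7.5, 5.95 and 5.34 to 503, 524 and 422 (6.27 ± 0.33) and Ltbp2, a microfibril-associated binding protein, from 2.29, 1.66 and 2.9 to 709, 769 and 434 (8.11 ± 0.57). All 3 MI libraries were far above sham, and MI 3 was the lowest of them for Eln. Of 23 proteoglycan and hyaluronan genes 19 were called higher and 0 lower (median 3.31, on 8 genes fewer than the list because those failed the filter). Of the 23, 5 had 1 to 3 sham counts in total, and such genes passed the filter through infarcted libraries. Without a filter the median of the 31 genes was 2.97, beside 0.26 over all genes. Biglycan (Bgn) rose from 195, 173 and 199 to 3699, 4203 and 2637 CPM (4.22 ± 0.32), fibromodulin (Fmod) from 2.93, 3.76 and 3.74 to 463, 552 and 375 (7.05 ± 0.54) and aggrecan (Acan), the large proteoglycan of cartilage, from 5, 3 and 2 counts to 1002, 1138 and 429 (6.93 ± 0.55). Chad, a cartilage leucine-rich protein, had 1 count in sham and 366, 329 and 225 in MI, a ratio of 456 (81.7 to 18040) with its 95% counting interval. Lubricin (Prg4) was not called (adjusted p = 0.0561), although it was without Sham 1 (0.0173) and without MI 2 (0.0353). Setting members with 0 to 3 sham counts at their bound or ratio left the medians of all lists at the values given.

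Most genes of the cells' contact with that matrix rose too. Of 27 integrins and partners 21 were called higher and 3 lower (median 1.89). Itga11, a collagen receptor of fibroblasts, rose from 2.93, 2.71 and 4.04 to 87.7, 109 and 56.4 CPM (4.69 ± 0.38), Itgbl1, a secreted integrin-like protein, from 12.4, 11 and 9.61 to 483, 600 and 374 (5.46 ± 0.36) and Itgb8, which takes part in releasing active TGF-beta, from 3.57, 2.62 and 2.82 to 36.1, 39.4 and 25.6 (3.49 ± 0.22). Itgb6 fell (28.2, 42.8 and 34.7 to 4.59, 5.98 and 13.7 CPM, -2.13 ± 0.42), as did Itgb1bp2, the muscle protein melusin (-1.89 ± 0.28). The collagen receptor Itga1 and the laminin receptor Itga6 were not called (0.16 and -0.08). Of 44 genes of the non-muscle cytoskeleton 39 were called higher and 1 lower (median 1.16), with Actn1 at 26.2, 33.9 and 28.8 CPM in sham and 199, 234 and 152 in MI (2.72 ± 0.25) and annexin A1 (Anxa1) at 22.6, 22.9 and 26.7 and 197, 171 and 119.8 (2.75 ± 0.18). Smooth muscle myosin (Myh11) did not move beyond its spread (79.4, 118 and 60.8 and 94.4, 103 and 69.9 CPM, adjusted p = 0.863).

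The secretory pathway that makes the matrix rose in part. Of 39 genes of the translocon and of protein folding in the endoplasmic reticulum 25 were called higher and 3 lower, with a median of 0.32, beside 3.07 for the collagen chains. Sec61a1, the channel that takes nascent chains into the reticulum, rose from 35.8, 36.6 and 39.4 to 93, 97 and 77.3 CPM (1.26 ± 0.09), the retrieval receptor Kdelr2 by 1.20 ± 0.11 and the disulfide isomerase Pdia4 by 1.25 ± 0.14. The chaperone Hsp90b1 was not called (352, 340.2 and 295 and 352, 482 and 384 CPM, adjusted p = 0.078), although it was without MI 1 (0.0366). With library totals only, 37 of the 39 were higher and 0 lower, beside 10488 of all 15138 genes called higher. The number higher was 21 with median-ratio factors and 20, 20 and 19 without Sham 1, 2 and 3. It was 24, 19 and 26 without MI 1, 2 and 3.

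**Figure D4:**
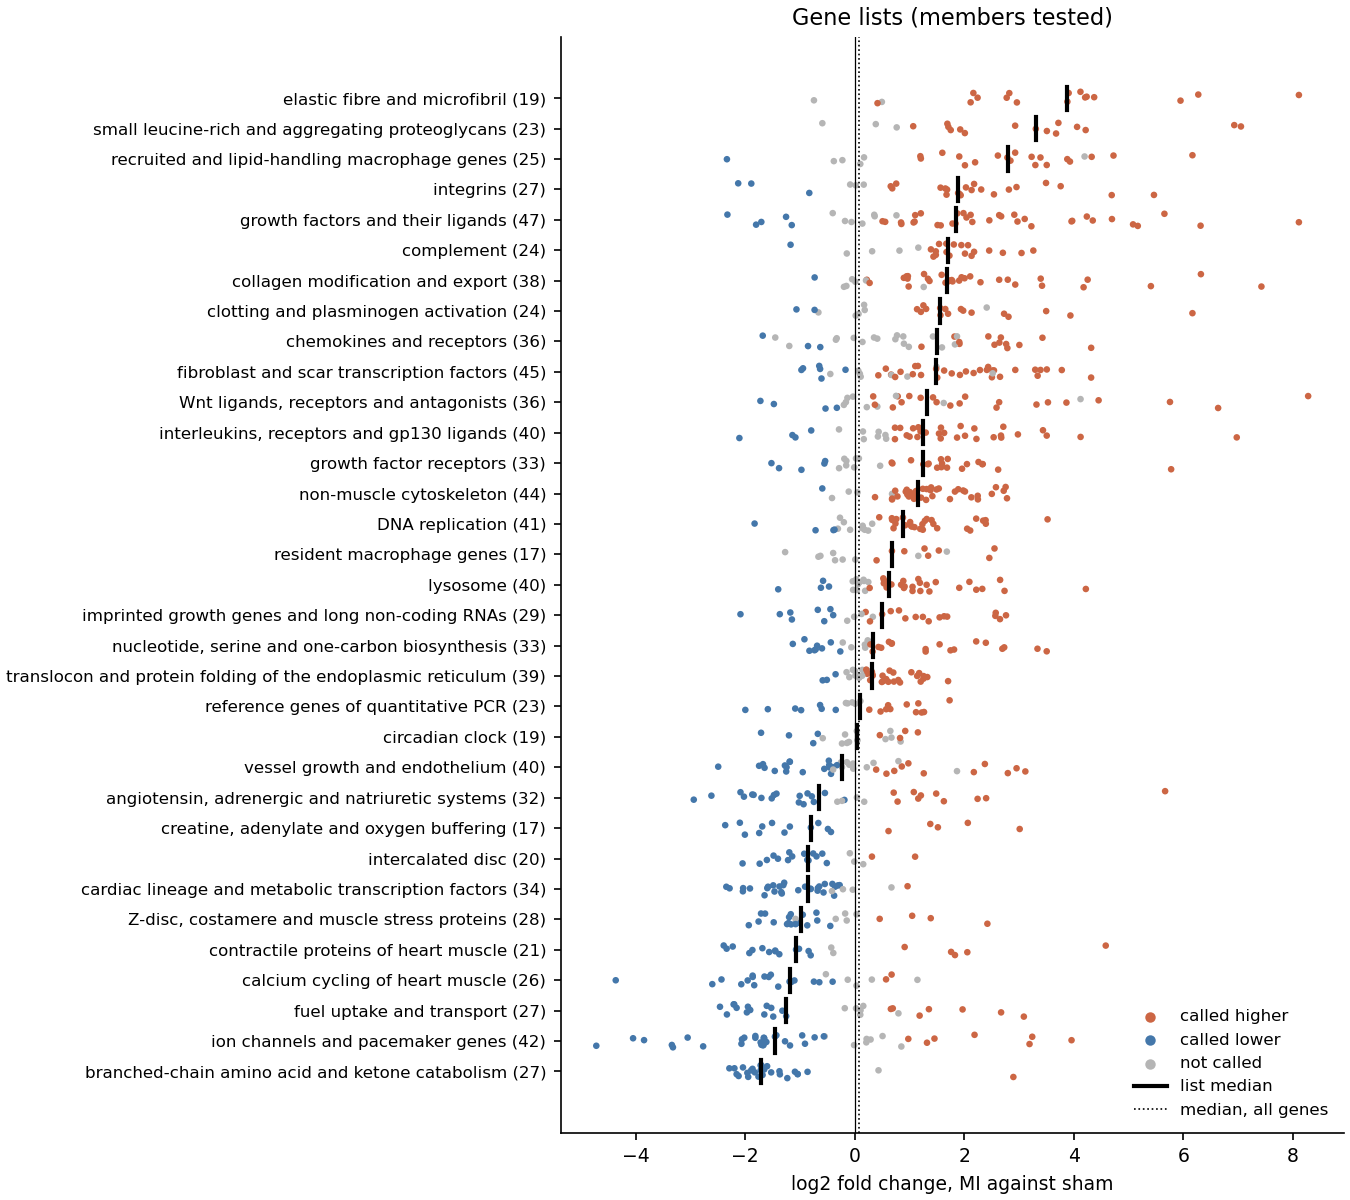
Each row is a list of genes with the number of members tested, ordered by median, and the horizontal axis is the log2 fold change of MI against sham; points are members with over 3 sham counts, coloured by call, black bars the list medians and the dotted line the median of all genes. Matrix lists lie at the top with medians of 3.88 and 3.31, amino acid catabolism and ion channels at the bottom with -1.71 and -1.45.

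Among signals between cells, most ligands and receptors rose. Of 47 growth factors and binding partners 34 were called higher and 5 lower (median 1.84), and of 33 receptors 20 were called higher and 5 lower (median 1.25); the difference between these medians was not tested. Gdf15, a stress-induced cytokine of the TGF-beta family, rose from 0.274, 0.175 and 0.305 to 9.03, 19 and 11.3 CPM (5.65 ± 0.81), the activin antagonist follistatin (Fst) from 1.1, 1.14 and 1.14 to 45.3, 51.8 and 17.9 (5.08 ± 0.61) and Gdf6, a bone morphogenetic protein relative, from 0.915, 0.262 and 1.14 to 29.6, 39.9 and 16 (5.17 ± 0.62). Ccn5, a matricellular relative of connective tissue growth factor, rose by 6.32 ± 0.46 on the log2 scale. Fgf16, a growth factor of heart muscle, fell from 20.1, 21.5 and 23.9 to 5.34, 5.58 and 9.2 CPM (-1.71 ± 0.30), as did Fgf13, an intracellular partner of sodium channels, and Egf (-1.80 ± 0.21 and -2.33 ± 0.31).

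Receptors of one family moved in different directions. Fgfr1 rose from 27.3, 24.6 and 28.8 to 135, 138 and 113 CPM (2.26 ± 0.19) and Egfr from 12.6, 10.1 and 12 to 64.7, 67.1 and 43.7 (2.34 ± 0.17). Fgfr2 rose from 2, 3 and 6 counts in sham to 641, 454 and 174 in MI (5.78 ± 0.61). Erbb4 and Erbb3, the neuregulin receptors, fell (-1.52 ± 0.16 and -1.38 ± 0.22), and so did the insulin receptor Insr (289, 259.6 and 245 to 119, 128 and 156 CPM, -0.97 ± 0.14). Bmpr1a, Bmpr2 and Igf2r were not called, with log2 changes of 0.07, 0.02 and -0.01. Lrp1, a scavenging and signalling receptor, rose from 157, 154 and 154 to 1152, 977 and 723 CPM (2.62 ± 0.22).

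Most tested genes of Wnt signalling rose. Of 36 Wnt ligands, receptors and antagonists 23 were called higher and 4 lower (median 1.32). Sfrp2 rose from 1.46, 1.92 and 3.58 to 822, 889 and 499.7 CPM (8.28 ± 0.53), Frzb from 5.4, 4.2 and 4.35 to 285, 275 and 192 (5.76 ± 0.50), Sfrp1 from 17.4, 20 and 21.8 to 545, 513 and 240.3 (4.45 ± 0.38) and Dkk3 from 2.47, 1.66 and 2.82 to 239.7, 246 and 211 (6.64 ± 0.34). These are secreted proteins that bind Wnts or their receptors, or are related to ones that do. Among the receptors Fzd2 rose (3.32 ± 0.27) and Fzd6 was not called (-0.14); the ligand Wnt5a was not called (14.1, 18.9 and 20.6 CPM in sham, 20, 15.6 and 12.3 in MI), and Lgr6, an R-spondin receptor, fell (-1.72 ± 0.26). Without MI 1, 18 members were called higher.

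Transcription factors known from fibroblasts, tendon, cartilage and bone mostly rose. Of 45 tested 31 were called higher and 6 lower (median 1.49). Sox9, a factor of cartilage, rose from 1.56, 2.19 and 1.14 to 33.3, 38 and 25.4 CPM (4.32 ± 0.47, adjusted p = 7.5e-05), Runx2, a factor of bone, from 1.19, 0.787 and 0.686 to 12.4, 14.5 and 9.48 (3.78 ± 0.30), Runx1 from 2.01, 3.94 and 3.13 to 39.9, 41.5 and 22.2 (3.51 ± 0.30) and Egr2 from 1.28, 2.27 and 1.37 to 17.1, 19.1 and 15.6 (3.39 ± 0.32). The MI libraries lay above the sham libraries for all 4. Prrx1, a factor of mesenchyme, was present in both groups and not called (91.7, 97.5 and 108 and 121, 105 and 94.4 CPM), and Egr1 was not called either (adjusted p = 0.109), although it was without Sham 2 (0.0281). Sox6 fell (-0.98 ± 0.12).

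Genes of recruited macrophages rose for the most part, and those of resident macrophages in part; the difference between both lists was not tested. Of 25 genes of recruited and lipid-handling macrophages 19 were called higher and 1 lower (median 2.79). Among 17 genes of resident macrophages 8 were called higher and 0 lower (median 0.68), beside 37.0% and 31.9% over all genes tested. The resident count was 5 higher without Sham 1 and 4 without Sham 2, and the median was 0.37 with limma-voom and 0.39 with a replicate block. Spp1 (osteopontin) rose from 0.457, 2.27 and 1.45 to 26.6, 34.1 and 24.3 CPM (4.33 ± 0.37), Lgals3 (galectin-3) from 1.28, 2.54 and 5.26 to 52.3, 56 and 33.8 (3.93 ± 0.49) and Plac8 from 0.0915, 0.787 and 0.305 to 19.9, 8.88 and 2.95 (4.72 ± 0.87). Of the resident genes Igf1 and Cx3cr1 rose (2.46 ± 0.15 and 2.55 ± 0.31), and Lyve1, F13a1 and Cd163 were not called (-0.40, -0.66 and -1.27). Cd163, a receptor that takes up haemoglobin, stood at 35.1, 28.3 and 34 CPM in sham and 25.6, 4.97 and 9.67 in MI, where MI 1 was the highest. Without MI 1 the 3 were called lower, with log2 changes of -1.05, -1.48 and -2.15 and adjusted p of 0.032, 0.026 and 0.00836, and the resident list then counted 5 higher and 5 lower. Lpl, counted in the recruited list as a lipid gene, is also a gene of heart muscle and fell.

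Most lysosome, complement and clotting genes rose too. Of 40 lysosomal genes 26 were called higher and 4 lower (median 0.62). Of 24 complement genes 19 were called higher and 1 lower (median 1.70). Clotting and plasminogen activation had 24 members tested, of which 16 were called higher and 2 lower (median 1.56). Cathepsin S (Ctss) rose from 20.1, 25 and 22.3 to 179, 161 and 109 CPM (2.73 ± 0.20), while the general lysosomal genes Ctsd and Lamp1 were not called (0.17 and 0.09) and Mitf, a regulator of lysosomal genes, fell (-1.40 ± 0.18). The C1 inhibitor Serping1 rose from 91.4, 104 and 105 to 524, 463 and 329 CPM (2.13 ± 0.19). The complement component C4b rose by 3.04 ± 0.55 and C1ra by 2.45 ± 0.25, and Cd59a, which shields cells from the terminal complex, fell (-1.17 ± 0.16). Thbs1 (thrombospondin-1) rose from 15.2, 19.5 and 15.2 to 1234, 1784 and 564 CPM (6.17 ± 0.56), and Serpinf1 by 3.94 ± 0.21 on the log2 scale. Vwf was not called (46.4, 48.7 and 88.7 and 75.1, 58.8 and 59.1 CPM, adjusted p = 0.806), but was without Sham 3 (0.0255).

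Most interleukin genes rose, and chemokine genes less uniformly. Of 40 interleukin, receptor and gp130 ligand genes 29 were called higher and 4 lower (median 1.25). Tnfrsf11b (osteoprotegerin), a decoy receptor of bone turnover, rose from 1, 1 and 3 counts to 552, 510 and 283 (6.98 ± 0.35, adjusted p = 5.1e-06), Il1b from 0.732, 1.22 and 0.991 to 9.18, 20.2 and 4.37 CPM (3.51 ± 0.65) and Il33 from 4.67, 6.56 and 6.02 to 52.3, 40.3 and 17.3 CPM (2.67 ± 0.57). Il15, a cytokine that striated muscle also makes, and its receptor chain Il15ra fell (-2.11 ± 0.20 and -1.08 ± 0.16). Of 36 chemokines and receptors 16 were called higher and 3 lower (over all genes tested, 37.0% and 31.9%), with a median of 1.51. Cx3cl1 and Cxcr4 rose (3.01 ± 0.38 and 2.67 ± 0.26), and Ccl6 and Ccl9 were not called (adjusted p = 0.282 and 0.155). Cxcl13, which attracts B cells, had 0, 0 and 1 counts in sham and 2291, 46 and 2 in MI; its adjusted p was 0.0236 (0.0604 without MI 1).

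Vessel and neurohormonal genes changed in both directions, and their balance turns with the scaling. Of 40 vessel genes 11 were called higher and 18 lower (over all genes tested, 37.0% and 31.9%), with a median of -0.24. With library totals only 25 were higher and 10 lower (median 0.49). The carbonic anhydrase Car4 fell from 32.6, 26.1 and 21.4 CPM to 3.33, 2.28 and 8.7 (-2.49 ± 0.50), and the water channel Aqp1 fell as well (log2 change -1.68 ± 0.27). Plvap, a protein of fenestrated and activated endothelium, rose from 4.94, 4.46 and 5.57 to 49, 36.1 and 19.1 CPM (2.79 ± 0.32), and Angpt2 and Esm1, genes of sprouting vessels, by 2.17 ± 0.21 and 2.38 ± 0.21. Vegfd rose (3.11 ± 0.32) and Vegfb fell (-1.75 ± 0.20). The pan-endothelial Pecam1 was not called (231, 206 and 192 and 173, 161 and 194 CPM, adjusted p = 0.0719), but was lower without MI 3 (0.0259), and with library totals only the sign turned (log2 change 0.48, adjusted p = 0.00207).

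In the angiotensin, adrenergic and natriuretic systems 32 genes were tested and 10 were called higher and 18 lower (median -0.65; 0.08 with library totals only, where 14 were higher and 11 lower). Nppa, the atrial natriuretic peptide, rose from 187, 138 and 54.4 to 5458, 6721 and 7091 CPM (5.67 ± 0.71, adjusted p = 0.00014), while the protease that activates it, Corin, fell from 262, 292 and 279 to 67.7, 78.9 and 109 (-1.71 ± 0.19). The groups did not overlap in either gene, and MI 3 had the most of both in MI. The alpha-1 adrenergic receptors Adra1a and Adra1b fell (-2.94 ± 0.33 and -2.62 ± 0.35), as did the angiotensin receptor Agtr1a (48.9, 49.7 and 55.5 to 15.6, 9.85 and 16.7 CPM, -1.87 ± 0.25). Ace, the angiotensin-converting enzyme, rose from 54, 54.6 and 58.7 to 286, 275 and 230.2 CPM (2.24 ± 0.22), and both subunits of soluble guanylate cyclase rose (Gucy1a1 2.40 ± 0.17, Gucy1b1 1.49 ± 0.17). The receptor Npr2 was not called (adjusted p = 0.155).

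Most DNA replication genes rose. Of 41 tested 27 were called higher and 4 lower (median 0.88), with the helicase subunit Mcm6 going from 10.6, 9.71 and 10.1 to 27, 31.2 and 24.1 CPM (1.43 ± 0.15) and the thymidylate synthase Tyms from 1.65, 1.57 and 2.13 to 8.99, 10.1 and 9.25 (2.39 ± 0.23). The clamp Pcna was not called (28.2, 28.3 and 32.1 and 29.1, 35.3 and 33.4 CPM), and Gmnn (geminin), an inhibitor of origin licensing, fell (43.1, 42.2 and 41 to 8.43, 11.1 and 16.1 CPM, -1.83 ± 0.25). Of 29 imprinted growth genes and long non-coding RNAs 17 were called higher and 8 lower (median 0.50); the non-coding RNAs Meg3 and Rian of one imprinted locus rose (2.76 ± 0.24 and 2.57 ± 0.28), and Snrpn fell (-2.09 ± 0.20). Of 19 core clock genes 4 were called higher and 4 lower (over all genes tested, 37.0% and 31.9%), with a median of 0.04. These counts depended on the scaling and on single libraries: 9 and 1 with library totals only (median 0.78), 5 and 7 without MI 1 (median -0.28), and 3 and 2 without Sham 2 and also without Sham 3. Clock itself was not called (109, 102 and 97.4 and 81.9, 99.7 and 104 CPM).

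Genes that are often used as references in quantitative PCR changed in both directions. Of 23 tested 11 were called higher and 7 lower, with a median of 0.10, beside 37.0% higher and 31.9% lower over all genes tested; with library totals only 17 were higher and 3 lower (median 0.84). Gapdh, the glycolytic enzyme, stood at 2838, 2770.2 and 2773 CPM in sham and 1238, 1339.8 and 1669.5 in MI (-0.98 ± 0.17, adjusted p = 0.00071), and was at -0.26 and no longer called with library totals only. Actb, the cytoplasmic actin, rose from 307, 337 and 349 to 648, 723 and 546 CPM (0.95 ± 0.13), Eef1a1 from 748, 663 and 739 to 2547, 2473 and 2121 (1.73 ± 0.19) and B2m from 237, 238 and 186 to 572, 538 and 432 (1.22 ± 0.20). The largest fall was that of Sdha, a subunit of succinate dehydrogenase (1741, 1819.5 and 1829.9 to 364, 375 and 609.6 CPM, log2 change -2.0). The genes with intervals around 0 were Rps18 (-0.10 to 0.30), Rpl32 (-0.22 to 0.24), Ipo8 (-0.23 to 0.14), Rplp0 (-0.36 to 0.09) and Eef2 (-0.43 to 0.11), given as 95% intervals of the log2 change. The calls of Rpl13a and Tbp were marginal and ended when any 1 of several libraries was left out. Without MI 2 the adjusted p of Rpl13a was 0.0785 and without Sham 3 0.0734. That of Tbp was 0.102, 0.155, 0.127 and 0.0822 without Sham 1, Sham 3, MI 1 and MI 3.

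**Figure D5:**
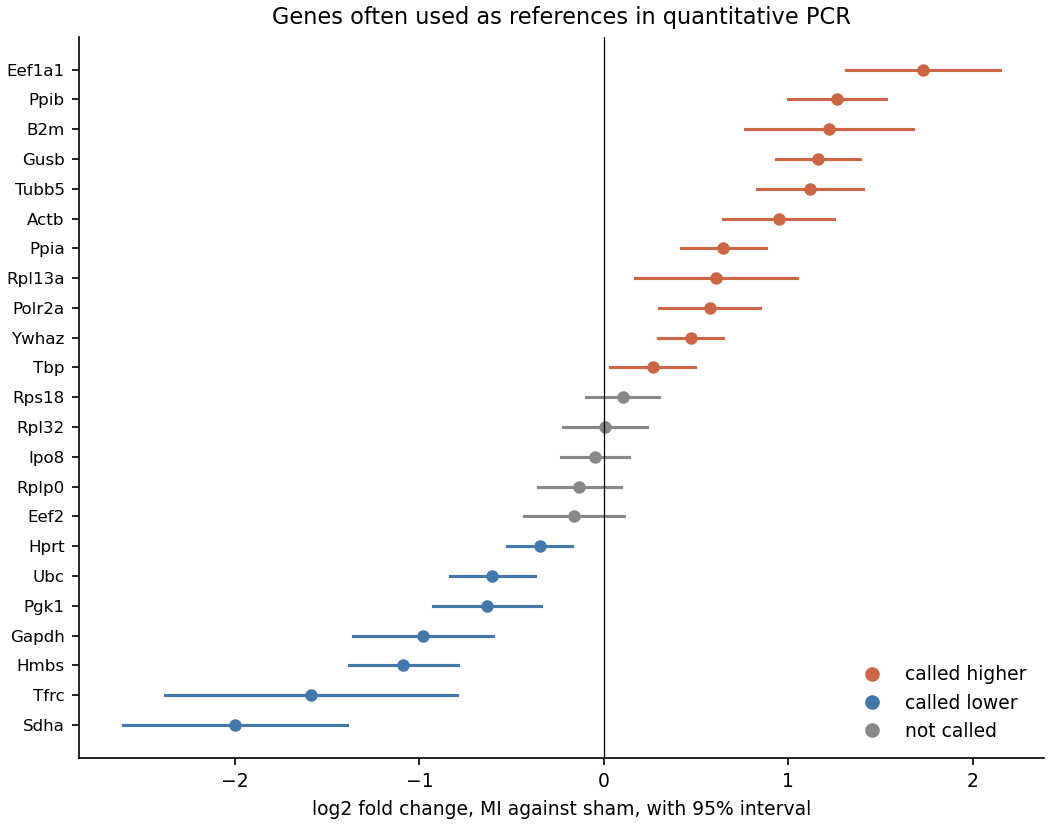
Points are the log2 fold changes of 23 reference genes of quantitative PCR in MI against sham and lines their 95% intervals, coloured by call. They run from -2.0 for Sdha to 1.73 for Eef1a1, and the intervals of 5 genes cross 0.

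Over the whole table the genes of at least 50 CPM whose intervals stayed closest to 0 were Clint1, Gapvd1, Smad4, Tsn, Ube4a and Yy1. Yy1, a widely expressed transcription factor, stood at 62.1, 60.7 and 63.2 CPM in sham and 62.1, 62 and 61.9 in MI, with a 95% interval of the log2 change of -0.14 to 0.14. Smad4, the shared partner of the TGF-beta signal transducers, stood at 64.1, 60.8 and 60.8 and 61.8, 61.5 and 64.3 CPM (-0.12 to 0.14). These intervals hold for TMM scaling, which centres the bulk of genes near 0. With library totals only the same genes were at 0.73 and 0.75.

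The genes with the largest spread among the MI libraries were Car3, Cxcl13, Jchain and immunoglobulin genes, and MI 1 was the highest in each of the first 3. Jchain, which joins antibody units and marks plasma cells, had 3, 1 and 6 counts in sham and 8511, 424 and 26 in MI 1 to 3, and Cd79a, a part of the B cell receptor, 6, 5 and 4 and 356, 26 and 14. Without MI 1 the adjusted p of Cd79a went from 0.0226 to 0.06, and 6 of 10 lymphoid markers were called higher, against 9 of 10 with it. This count was also 5, 5 and 4 without Sham 1, 2 and 3, 4 with limma-voom and 6 with DESeq2. The T cell marker Cd3e, taken from the marker list, was higher in all 3 MI libraries (2, 1 and 1 counts in sham, 27, 30 and 10 in MI). Immunoglobulin genes are near-identical copies, so their single counts are uncertain.

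Car3, a carbonic anhydrase abundant in fat and slow muscle, had 2, 5 and 5 counts in sham and 4416, 61 and 47 in MI. Transcripts specific to fat cells were nearly all in MI 1: Adipoq had 0, 0 and 1 counts in sham and 626, 2 and 4 in MI, Plin1 0, 0 and 0 and 434, 4 and 2, and Cfd 1, 0 and 5 and 2068, 8 and 10. Of the 12 fat markers 4 passed the filter, and all 4 (Cidea, Fabp4, Plin4 and Pnpla2), which sham held too, were called lower. Several liver transcripts were nearly all in MI 2: Alb had 0, 0 and 0 counts in sham and 2, 559 and 0 in MI, Apoa1 1, 1 and 0 and 0, 404 and 2, and Ttr 4, 1 and 5 and 3, 289 and 5. Cyp2e1, of the same list, was highest in MI 1, with 1, 1 and 3 counts in sham and 694, 79 and 4 in MI. The liver list as a whole held 0.0125% of the counts in MI 1 and 0.0141% in MI 2. Hp (haptoglobin), which liver and fat both make, had 1, 3 and 10 counts in sham and 1664, 226 and 33 in MI, and its adjusted p went from 0.0235 to 0.073 without MI 1. The calls of Car3, Cxcl13, Hp, Cd79a and Jchain, all higher in MI, ended with limma-voom (adjusted p = 0.389, 0.356, 0.352, 0.239 and 0.469). They also ended without Sham 1 (0.0502, 0.0671, 0.0687, 0.056 and 0.053) and without Sham 3 (0.0525, 0.0931, 0.059, 0.0735 and 0.055). The part that these tissues play in other values of MI 1 and MI 2 was not tested.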

How the data were processed

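The authors deposited raw counts per gene for 9 libraries of total RNA from mouse left ventricle, sequenced as 150 bp paired reads from RNA with an integrity number above 7.0, per the labels. The submitters' processing notes name STAR and the builds mm10, GRCm39 and mm39. The program that counted reads, its strand setting and its annotation were not given in the sources used here. Groups follow the labels.

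Genes passed edgeR's filter (minimum count 10, total 15) over all 9 libraries. Counts were scaled by TMM and tested with edgeR 4.0.16 in R 4.3.3: robust quasi-likelihood fits over all 9 libraries by group, 6 residual degrees of freedom, Benjamini-Hochberg adjustment over 15138 genes at 0.05, and glmTreat for changes past 2-fold. SE and 95% intervals are from that fit. Depth was 14451410 to 19269072 counts, and counting intervals cover counting error only. Shares and ratios were compared by 2-sided exact permutation, ratios per kilobase with exon lengths of GENCODE M21. Alternatives were DESeq2 1.42.0, limma-voom 3.58.1, other scalings and filters, a replicate block and each library left out. The method was tested on simulated data. Few genes changed there, equally in both directions, so that test does not cover a shift as broad as the one here.

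Members, gene lists and pairs were chosen with earlier results of these data known, so counts over a list are descriptions. The text names the 12 genes of smallest p past 2-fold in each direction at 20 CPM or more, the 10 most counted per group, all pairs and reference genes, up to 5 called members a list and direction with the largest change at 5 CPM or more, up to 3 members not called, the 10 most variable in MI, the 6 closest to 0 at 50 CPM or more, and marker genes of other tissues. Predicted and clone names were to be left out, and CT010467.1 was named after its counts were seen. Results of some genes are not reported here, although counts over lists and pairs include them. Of the lists not described in the report, atrial markers had 6 called higher and 5 lower of 12, skeletal muscle markers 1 and 2 of 4, lung markers 0 and 1 of 1, liver markers 1 and 0 of 3 and red blood cell markers 0 and 0 of 5. Of 5 sex-linked markers, used only to check libraries, 0 were called higher and 3 lower.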

Additional observations from a re-analysis of the deposited data

How the results depend on the processing

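Scaling mattered most. With library totals only, 10488 genes were called higher and 1765 lower, and 4642 were past 2-fold, 4390 higher and 252 lower. With totals of nuclear genes 3162 were called lower, and 534 were past 2-fold lower. Leaving out 1 library gave 9500 to 10580 called genes and 597 to 1585 past 2-fold lower, the lowest without MI 2 and the highest without MI 3. Called genes numbered 10251 with DESeq2, 10236 with limma-voom, 10097 of 28776 without a filter and 10040 of 14792 in the 6 libraries alone. The replicate numbers did not pair the libraries: deviations of libraries with the same number correlated at -0.0546, 0.0028 and -0.0399, and a replicate block gave 10054 called genes and 2870 past 2-fold. A change of sign was counted only where the gene was called in the main scaling or in the alternative. Of the 252 genes named, those counted changed sign under scaling by library or nuclear totals. None of them was called in the main scaling. With library totals the log2 change was 0.73 for Clint1, Gapvd1, Tsn, Vcl and Yy1, 0.72 for Igf2r, 0.68 for Ipo8, 0.64 for Itga6, 0.62 for Clock, 0.6 for Fzd6 and Rplp0, 0.59 for Wnt5a, 0.58 for Hspb1 and P4ha2, 0.57 for Eef2 and 0.48 for Pecam1. With nuclear totals it was 0.33 for Clint1, Gapvd1, Tsn and Yy1, 0.32 for Igf2r and Vcl, 0.28 for Ipo8 and 0.19 for Fzd6. Of the 207 named genes that were called, 12 lost the call in at least 1 alternative, among them Actc1, Gapdh, Itga7 and Shmt1 only with library totals. For single genes depth limits the precision at low counts, as for Tnni1.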
